A study of Ovis aries and Capra hircus and Bos taurus with 26 samples.

Results

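Broad H3K4me3 domains of ruminant liver are the widest regions marked by H3K4me3 in all 3 animals of a species. For each species, the autosomal H3K4me3 peaks of 3 animals that overlapped or touched were merged, and a merged region was called a broad domain when each of the 3 libraries contributed to it and it was at least 2000 bp wide. This gave 903 broad domains of 19682 regions found in all 3 animals in the cattle, 1066 of 22441 in the sheep and 1028 of 20959 in the goats. In all, 2997 of 63082 regions were broad. The remaining regions found in all 3 animals, hereafter the other regions, numbered 18779 in the cattle, 21375 in the sheep and 19931 in the goats. The domains were chosen by the measured extents of the H3K4me3 peaks of these same libraries. Their widths and H3K4me3 values, and the numbers of wide H3K4me3 peaks in these libraries, are therefore given as a description with no test. The tests concern H3K27ac, or an H3K4me3 library that was left out when the regions were built.

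H3K4me3 is the trimethylation of a lysine in the tail of histone H3, and it marks the nucleosomes around active or poised transcription start sites. Most H3K4me3 regions are narrow and flank 1 promoter, whereas a small class extends over the promoter into the transcribed gene and is known as broad domains. In several cell types, broad domains have been described at genes that define the identity of the cell. H3K27ac, the acetylation of another lysine of the same histone, is found at active promoters and, without H3K4me3, at active enhancers.

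The livers came from 3 Holstein cattle, 3 Texel sheep and 3 Yunnan black goats, all healthy adults with no treatment named, whose tissue was taken after death. The animals carry the letters A, B and C within a species. H3K4me3 was measured in all 9 animals and H3K27ac in 8, since cattle A has no H3K27ac library here. Each species was represented by 1 breed, and the methods give an older age range for the cattle than for the sheep and goats, so breed and species, and in the cattle also age, cannot be told apart. Whole liver mixes hepatocytes with other cells, so a change in the share of cells with a mark cannot be told from a change in its level per cell. Genes of these builds were not analysed here, so the domains are described by position and the labelled tissue was not checked against marker genes. The autosomal lists held between 23483 and 29469 H3K4me3 peaks and between 35693 and 48735 H3K27ac peaks. The methods name 1 subsampled depth for paired-end libraries, but a peak list carries no read number, so the depth behind each list was not checked here.

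The number of regions fell with width across the limit without a break, so the broad domains were the end of a continuous distribution. They made up 4.59% of the regions found in all 3 animals in the cattle, 4.75% in the sheep and 4.90% in the goats. Their median width was 2191 bp in the cattle, 2224.5 bp in the sheep and 2215 bp in the goats, against 1024, 987 and 1027 bp for the other regions. Because they were long, they held 2.05, 2.47 and 2.37 Mb in the 3 species, which was 9.43% of the total length of these regions in cattle. Domains under 2500 bp were the most frequent, with 763 in the cattle, 841 in the sheep and 813 in the goats. Only 22, 39 and 36 domains reached 3000 bp.

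**Figure D1:**
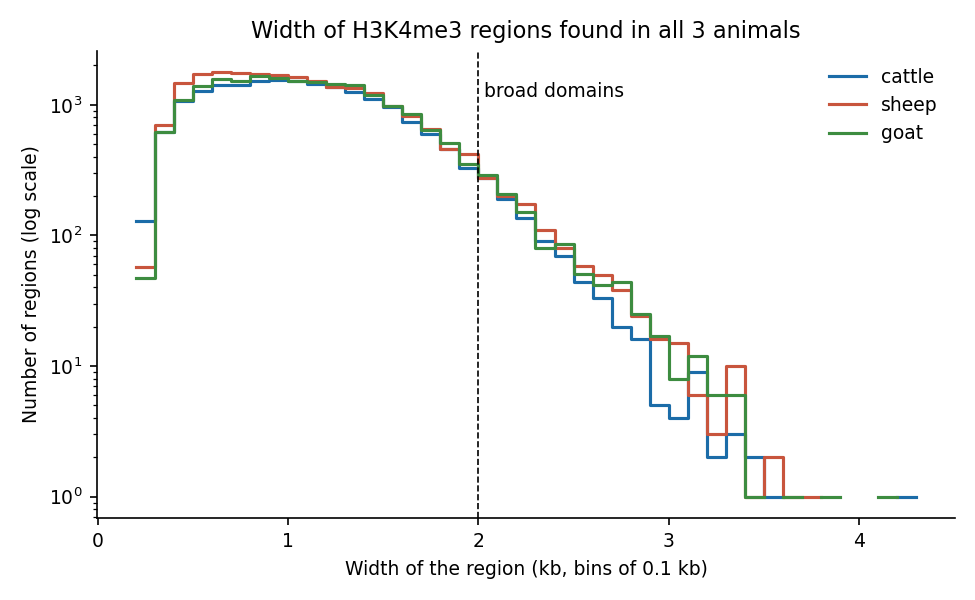
Number of H3K4me3 regions found in all 3 animals (vertical axis, log scale) by width in bins of 0.1 kb (horizontal axis), 1 line per species. The dashed line marks the 2000 bp limit, and the counts fall across it without a break in all 3 species.

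The limit of 2000 bp cut through this slope. In cattle, 137 domains were less than 50 bp above it and 158 regions lay within 50 bp below it. The corresponding numbers were 149 and 194 in sheep and 175 and 183 in goats. Just inside the limit, the cattle domain chr8:22095203-22097202 (ARS-UCD1.2) was 2000 bp wide, with single H3K4me3 peaks of 1963, 1922 and 1876 bp in animals A, B and C. Just outside it, the cattle region chr4:78746628-78748626 missed the limit by 1 bp, with single peaks of 1988, 1879 and 1909 bp. In sheep, chr3:144530259-144532258 (Oar_rambouillet_v1.0) was a member at 2000 bp and chr1:221387795-221389793 missed it by 1 bp, and in goats the same held for chr1:118257577-118259576 (ARS1) and chr2:102073124-102075122.

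The domains differed in how many animals had a single peak that reached the limit. A single peak of at least 2000 bp lay on 594 of the 903 cattle domains in animal A, on 213 in B and on 399 in C. In sheep, 367, 531 and 799 of the 1066 domains carried such a peak in A, B and C, and in goats 342, 649 and 757 of the 1028. Exactly 1 animal had a wide peak on 401 cattle domains (44.4%), 425 sheep domains (39.9%) and 350 goat domains (34.0%), the most frequent case in each species. All 3 animals had a wide peak on 133 cattle domains (14.7%), 250 sheep domains (23.5%) and 280 goat domains (27.2%). No single animal did on 166, 130 and 119 domains, whose width came from peaks of different animals that overlapped or touched. The median share of a domain's length under H3K4me3 of all 3 animals was 81.0% in the cattle, 83.5% in the sheep and 85.1% in the goats, a description, since the same intervals chose the domains.

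Domains were split into several peaks more often in some libraries than in others. In cattle B, 49.8% of the domains held more than 1 H3K4me3 peak, against 9.08% in A and 30.8% in C. In sheep, the share was 30.3%, 29.1% and 12.6% in A, B and C, and in goats 28.1%, 15.8% and 12.4%. The libraries with the largest share of split domains in cattle, sheep and goats were thus B, A and A, and these were also the libraries with the fewest wide peaks. Broad domains held a mean of 3.30 to 3.75 called summits per library, against 1.45 to 1.61 in the other regions.

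H3K4me3 fold enrichment was lower on these domains than on regions of intermediate width. Fold enrichment, the ratio of the signal at a summit to the background of the peak caller, had a median between 5.78 and 6.40 on broad domains in the 9 libraries. The regions from 1500 to under 2000 bp wide had medians between 7.66 and 8.78, and all other regions together of at least 7.32. By width class, the median fold was highest in regions from 1000 to under 1500 bp, at 9.82 ± 0.652 (SD, n = 9), and it fell in every further step to 4.05 ± 0.227 in domains of 3000 bp and more. That order was found in all 9 libraries. Regions under 500 bp had a lower fold than domains from 2000 to under 2500 bp, at 5.13 ± 0.223 against 6.38 ± 0.291. The median −log10 q was 73.7 ± 24.0 in domains from 2000 to under 2500 bp, above the 12.5 ± 2.55 of regions under 500 bp and the 24.5 ± 6.81 of those from 500 to under 1000 bp. It was below the 84.3 ± 28.4 and 92.4 ± 31.1 of the 2 classes between 1000 and 2000 bp, so that broad domains were below regions of intermediate width by both measures. Across the domains of a species, width and mean H3K4me3 fold had a Spearman rho of -0.45 in the cattle, -0.47 in the sheep and -0.49 in the goats, a description over domains that share the same 3 libraries.

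To ask whether a wide domain recurs in an animal that played no part in its choice, regions were built from 2 animals and read in the third. Of regions at least 2000 bp wide in the other 2 animals, the held-out cattle A, B and C had a single peak of at least 2000 bp on 65.2%, 23.5% and 44.4%. The held-out sheep had one on 33.9%, 50.5% and 73.7%, and the held-out goats on 33.4%, 64.4% and 75.1%. Of narrower regions built the same way, between 0.121% and 1.88% carried such a peak. The difference was 50.8 percentage points ± 18.4 (SD, n = 9), and it was positive in 9 of 9 animals (p = 0.00391, adjusted p = 0.0117, exact two-sided sign-flip test). That p is the smallest the test allows. The narrower regions were under 2000 bp by construction, and the median of the longest held-out peak on them was 717 to 975 bp. Wide peaks were thus unlikely there, and the test shows only that peak width was alike between animals. Against regions from 1500 to under 2000 bp alone, the difference was 48.7 percentage points. Animals of a species were read on largely the same regions, so the 9 values are not fully independent. The share depended on the animal held out and was lowest in cattle B, sheep A and goat A, the libraries with the fewest wide peaks. In those 3, H3K4me3 covered a mean of 84.4%, 84.0% and 84.9% of the length of a domain defined in the other 2 animals, against 70.3%, 74.7% and 72.2% of the narrower regions. Over all 9 animals the means were 90.2% ± 4.60 and 82.9% ± 8.20 (SD), so the gap was smaller in the other animals, and it was not tested.

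The number of wide peaks in single libraries is given as a description, because the same H3K4me3 peaks chose the domains. Cattle A, B and C had 595, 213 and 399 autosomal H3K4me3 peaks of at least 2000 bp. Sheep had 367, 532 and 800, and goats 342, 650 and 759. The group means were 402 ± 191 in the cattle, 566 ± 219 in the sheep and 584 ± 216 in the goats (SD, n = 3 each). The ranges of the species overlapped. The goat mean exceeded the cattle mean by 0.58 on the log2 scale. That value was 0.18 without cattle B, 0.92 without cattle A, 0.35 without goat C, 0.93 without goat A, and 1.10 for peaks of at least 2500 bp.

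**Figure D2:**
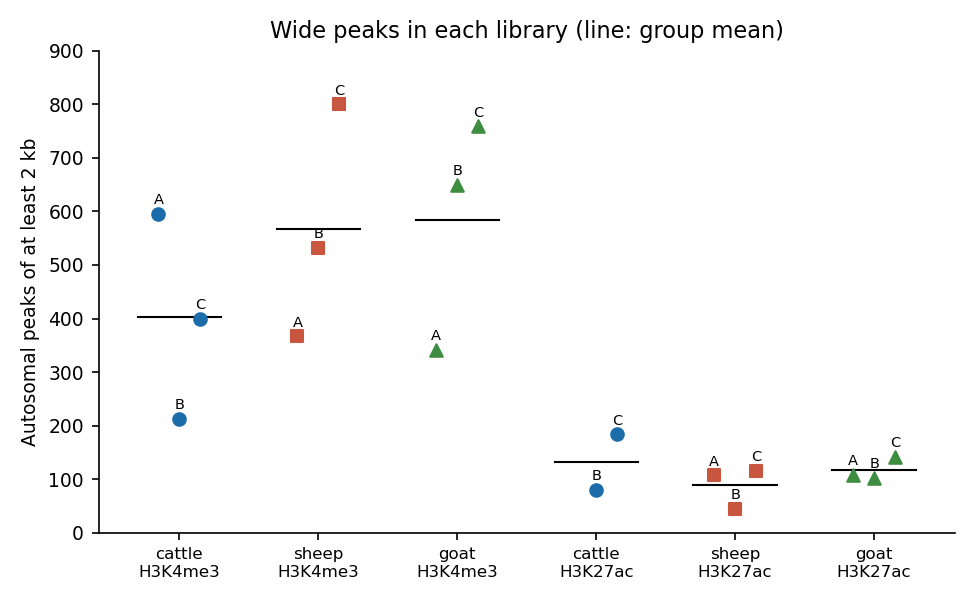
Autosomal peaks of at least 2 kb in each library (vertical axis), by species and mark, with the animal's letter above its point and a line at the group mean. The 9 H3K4me3 libraries lie between 213 and 800 and the 8 H3K27ac libraries between 45 and 184.

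Wide peaks were more numerous in H3K4me3 than in H3K27ac. H3K27ac peaks of at least 2000 bp numbered 80 and 184 in cattle B and C, 107, 45 and 116 in sheep A, B and C, and 108, 103 and 142 in goats. Every H3K4me3 library had more than any H3K27ac library. On the log2(number + 1) scale the marks differed by 2.18, or 4.52-fold, averaged over species, also a description with no test. The H3K27ac lists were the longer ones, so the difference in the share of peaks that were wide was larger still, at 2.80 on the log2 scale. When intervals of the same mark within 500 bp were joined within a library, the difference was 0.58.

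Broad domains almost always carried H3K27ac. At least 1 bp of an H3K27ac peak lay on 95.8% and 97.9% of the cattle domains in B and C, on 96.3%, 94.8% and 97.5% of the sheep domains in A, B and C, and on 96.3%, 98.2% and 97.9% of the goat domains. For the other regions the values ran from 73.6% in sheep B to 83.0% in goat B, so the groups did not overlap. The difference was 17.7 percentage points ± 2.67 (SD, n = 8), positive in 8 of 8 animals (p = 0.00781, adjusted p = 0.0117, exact sign-flip test). Broad domains are longer by construction and offer more bases for an overlap. Regions from 1500 to under 2000 bp reached 96.1% ± 1.14 (SD, n = 8), and the difference of broad domains from them was 0.741 percentage points.

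H3K27ac in every library of the species was found on 861 of the 903 cattle domains (95.3%), 993 of the 1066 sheep domains (93.2%) and 980 of the 1028 goat domains (95.3%). In cattle the libraries are those of B and C only, so a criterion over all libraries is easier to meet there. Among all regions found in all 3 animals, the share was 75.9% in the cattle, 68.0% in the sheep and 76.8% in the goats. The class from 1500 to under 2000 bp stood at 94.8%, 92.1% and 95.5%, close to the broad domains. No H3K27ac in any library was found on 15 cattle, 14 sheep and 10 goat domains, or 1.66%, 1.31% and 0.973%, where all regions gave 15.6%, 15.1% and 10.9%.

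H3K27ac covered only part of the length of a domain. A mean of 59.1% and 66.1% of the length of a cattle domain was under H3K27ac in B and C, against 56.3% and 57.7% for the other regions. In sheep A, B and C the values were 59.2%, 53.0% and 60.2%, against 52.1%, 47.4% and 53.4%. In goat A, B and C they were 60.2%, 63.5% and 65.8%, against 59.6%, 61.0% and 60.1%. The difference was 4.95 percentage points ± 2.68 (SD, n = 8), positive in 8 of 8 animals but only 0.622 in goat A (p = 0.00781, adjusted p = 0.0117, exact sign-flip test). With a minimum width of 2500 bp the difference was -2.01 (p = 0.203, exact sign-flip test). It also turned when the broad domains were set only against the regions from 1500 to under 2000 bp, of which 66.7% ± 4.28 of the length was covered. Broad domains were then lower by 5.85 percentage points, in 8 of 8 animals (p = 0.00781, exact sign-flip test).

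The midpoint, a single base whatever the width, was under H3K27ac on 72.8% ± 4.67 of the broad domains and on 69.9% ± 3.71 of the other regions (SD, n = 8). The difference of 2.98 percentage points was positive in 7 of 8 animals and negative in goat A, at -2.75 (p = 0.0312, adjusted p = 0.0352, exact sign-flip test). It did not pass without cattle B (3.64 percentage points) or without cattle C (2.68), with p = 0.0625 in both by the same exact test. Against the class from 1500 to under 2000 bp, 80.1% ± 3.51 of which had the midpoint under H3K27ac, broad domains were lower by 7.27 percentage points in 8 of 8 animals (p = 0.00781, exact sign-flip test). When the highest H3K4me3 summit was read in place of the midpoint, the difference from all other regions was 15.9 percentage points. For the midpoint, a minimum width of 2500 bp turned the difference to -8.38 (p = 0.00781), and with peaks of q 1e-05 or lower it was 1.98 (p = 0.102), both by the exact sign-flip test.

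**Figure D3:**
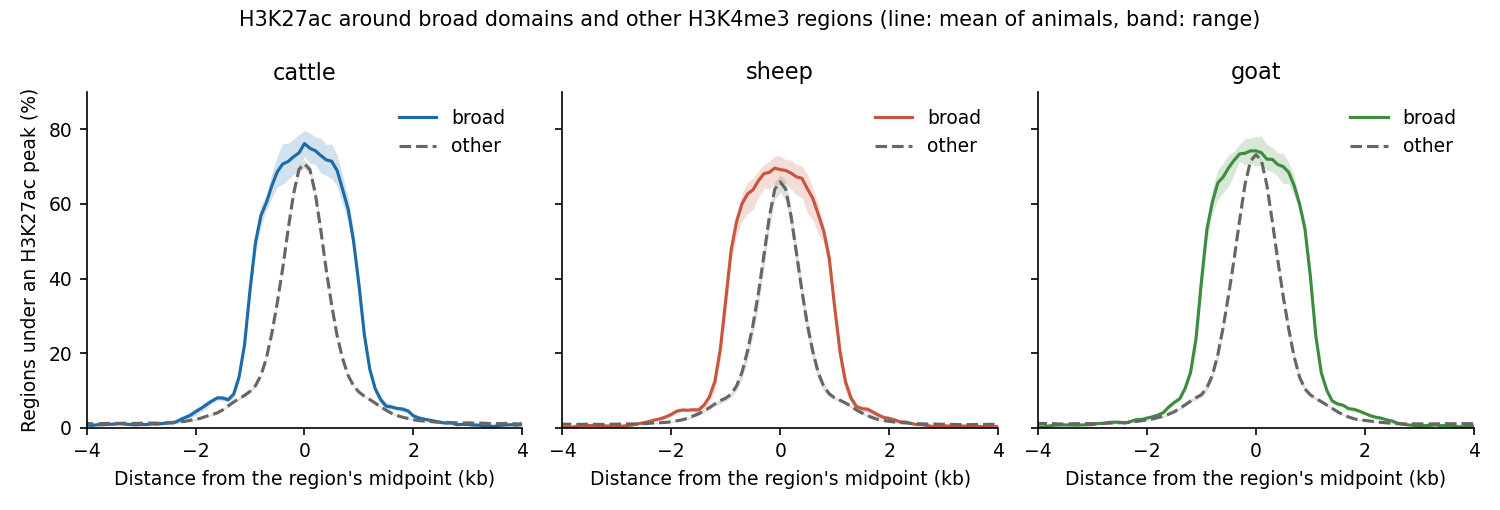
Share of regions under an H3K27ac peak (vertical axis, %) at each distance from the region's midpoint (horizontal axis, kb), for broad domains (solid) and other regions (dashed) in cattle, sheep and goats. Lines are means of the 2 or 3 animals and bands their range, and the heights at the midpoint lie close together while the shoulders of broad domains reach farther out.

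At 500 bp from the midpoint, 67.7% ± 5.28 of broad domains and 32.0% ± 4.04 of the other regions were under H3K27ac (SD, n = 8), and at 1000 bp 36.9% ± 4.10 and 8.74% ± 0.832. At 1500 bp, outside most domains, the shares were 6.06% ± 1.19 and 4.26% ± 0.460. The share thus fell steeply near the edges of H3K4me3. An H3K27ac peak ran past an edge of the domain on 27.4% ± 6.22 of the broad domains, and past both edges on 1.30% ± 0.595.

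Within the domain, H3K27ac was denser in the middle than at the ends in all 8 libraries. With each domain divided into 5 equal parts, a mean of 72.1% ± 4.38 of the central part was under H3K27ac, against 47.8% ± 4.10 of the 2 outer parts (SD, n = 8). In the class from 1500 to under 2000 bp, the central part reached 79.9% ± 3.48 and the outer parts 50.5% ± 5.72. In domains of 3000 bp and more the means were 54.6% ± 7.28 in the central part and 48.0% ± 7.28 in the outer parts, but the animals differed. In cattle B and C, read on the same 22 domains, the outer parts were higher, at 46.0% and 63.6% against 40.5% and 52.3% in the centre. In every sheep and goat the centre was higher, with 59.6% against 42.2% in sheep A and 53.8% against 48.8% in goat A. Of the domains of 3000 bp and more, 66.4% ± 6.22 held at least 2 H3K27ac peaks, against 45.9% ± 5.72 of all broad domains and 29.6% ± 5.85 of the class from 1500 to under 2000 bp. Most of the longest domains were thus marked by H3K27ac in several pieces.

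**Figure D4:**
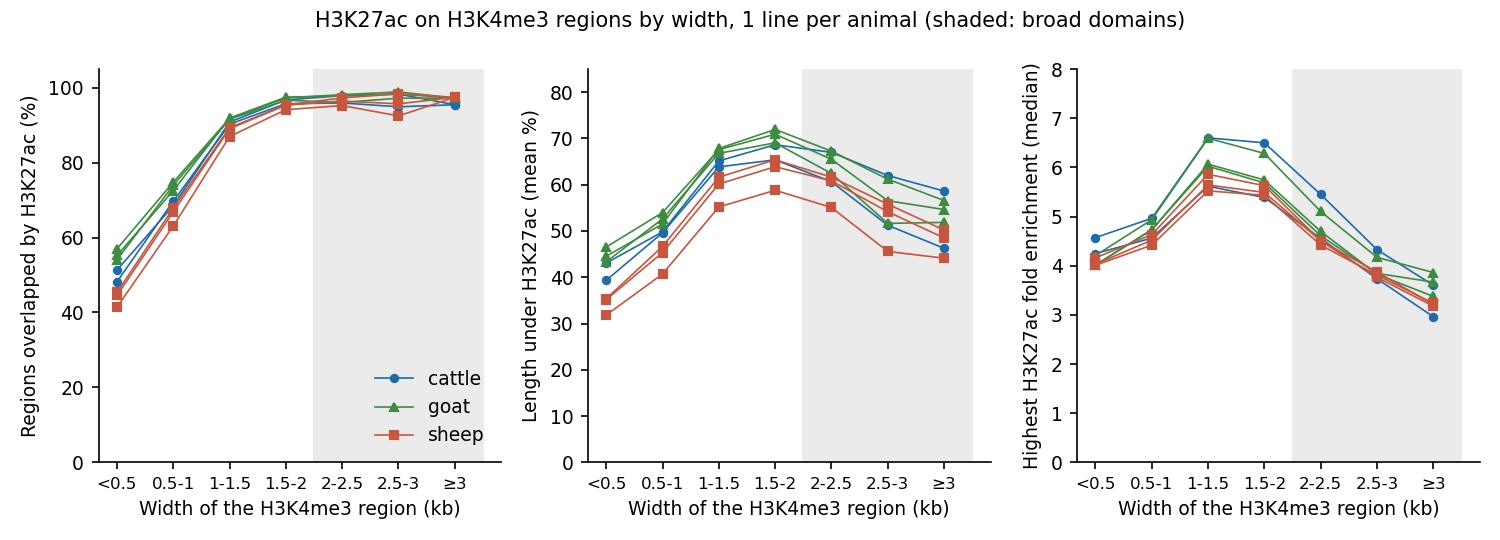
H3K27ac on H3K4me3 regions by width class in kb (horizontal axes), 1 line per animal, with broad domains shaded. From left to right, the vertical axes give the share of regions overlapped by H3K27ac (%), the mean share of length under H3K27ac (%), and the median of the highest H3K27ac fold enrichment. The share overlapped levels off at 96.1% in the class of 1.5 to 2 kb, while covered length and fold are lower in the shaded classes than in the class of 1.5 to 2 kb.

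H3K27ac peaks on broad domains had a lower fold enrichment than those on other regions. The median of the highest H3K27ac fold per region was 4.29 and 5.22 on the domains of cattle B and C, against 5.12 and 5.89 on the other regions. It was 4.20, 4.26 and 4.27 against 4.96, 5.08 and 5.21 in sheep A, B and C, and 4.48, 4.36 and 4.86 against 5.38, 5.32 and 5.73 in goat A, B and C. The log2 ratio was -0.25 ± 0.036 (SD, n = 8), negative in 8 of 8 animals (p = 0.00781, adjusted p = 0.0117, exact sign-flip test). Against all other regions, the direction depended on the measure of strength. The peak caller's −log10 q, which grows with the number of reads as well as with their ratio to background, had a median of 24.9 ± 5.47 on broad domains and 19.1 ± 3.59 on other regions, a log2 ratio of 0.37 in the opposite direction (p = 0.00781, exact sign-flip test). Against regions from 1500 to under 2000 bp alone, the log2 ratio of the fold was -0.36 (p = 0.00781, exact sign-flip test), and the median −log10 q of that class, 29.3 ± 6.05, was also above the 26.2 ± 5.73 of domains from 2000 to under 2500 bp. The direction of the fold also turned with a minimum width of 1500 bp, at 0.06. By class, the fold rose to 5.99 ± 0.421 in regions from 1000 to under 1500 bp and fell in each further step to 3.39 ± 0.299 at 3000 bp and more, in all 8 libraries. Domains with a higher H3K4me3 fold tended to have a higher H3K27ac fold. Across the domains with H3K27ac in every library, Spearman's rho between the mean folds of the marks was 0.67 in the cattle, 0.71 in the sheep and 0.70 in the goats, as a description of domains that share libraries.

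The domains differed widely among themselves in H3K27ac. The share of length covered, averaged over the libraries of the species, had a median of 66.5% in the cattle (quartiles 52.0% and 78.0%), 60.9% in the sheep (44.0% and 73.6%) and 67.0% in the goats (49.7% and 79.5%). Under 25% was covered on 60 cattle, 98 sheep and 62 goat domains, and 75% or more on 278, 239 and 356. These counts, and the counts of peaks that follow, were made for the broad domains only. They therefore do not show what is particular to broad domains. A single H3K27ac peak in every library was found on 376 cattle domains (41.6%), 315 sheep domains (29.5%) and 285 goat domains (27.7%), and at least 2 in every library on 234 (25.9%), 265 (24.9%) and 316 (30.7%). Every library means B and C in cattle, and A, B and C in sheep and goats, so these shares are not alike between species. Width and covered share had a Spearman rho between -0.19 and -0.17 over the domains of the 3 species, a weak relation given as a description.

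The widest cattle domain, chr16:81001623-81005905 (4283 bp), was a single H3K4me3 peak of 4255 bp in animal A. In B and C its longest peaks were 2637 and 2577 bp, with 2 peaks in each. It was covered by H3K27ac over 84.9% of its length in B and 92.2% in C, at folds of 3.04 and 2.94. The next cattle domains were chr19:25180573-25184079 (3507 bp), with 58.1% and 80.6% under H3K27ac, and chr7:60232181-60235665 (3485 bp), with 50.8% and 67.1%. The H3K4me3 folds of these 3 domains lay between 2.83 and 4.63, below the median of all broad domains in each library.

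In goats, the widest domain was chr29:16028949-16033124 (4176 bp), with longest H3K4me3 peaks of 1442, 1364 and 3725 bp in A, B and C and 45.8%, 48.7% and 36.5% under H3K27ac. It was followed by chr14:35917254-35921104 (3851 bp) and chr7:35366958-35370568 (3611 bp). In sheep, chr18:59681032-59684771 (3740 bp) and chr18:59718782-59722368 (3587 bp), the widest and the third widest, lay close to each other on 1 chromosome. Both were 1 peak in sheep C, of 3730 and 3578 bp, and were split in A and B. H3K27ac covered between 30.5% and 47.8% of both in the 3 animals. Between them in rank stood chr5:78442408-78446010 (3603 bp), which had the highest H3K4me3 fold of the 3, at 6.05, 5.45 and 5.29 in A, B and C.

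A few broad domains carried no H3K27ac peak in any library of their species, which in cattle covers animals B and C but not A. The widest of the 15 in cattle was chr18:39069908-39073086 (3179 bp), with longest H3K4me3 peaks of 3128, 1910 and 2266 bp and folds of 2.80, 3.57 and 3.80 in A, B and C. The next were chr1:118956622-118959494 (2873 bp) and chr16:5142524-5145302 (2779 bp). The widest of the 14 in sheep were chr17:3379099-3382242 (3144 bp), chr4:47060283-47062950 (2668 bp) and chr11:28591856-28594326 (2471 bp). Of the 10 in goats, the 2 widest were both on chromosome 17, at chr17:67973773-67976881 (3109 bp) and chr17:68005366-68008076 (2711 bp), and the next was chr16:74530078-74532398 (2321 bp). H3K4me3 folds of these 9 domains ranged from 2.55 to 5.80.

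At the other end stood domains that H3K27ac covered almost whole. The cattle domain chr21:68318251-68320337 (2087 bp) was under H3K27ac over 97.9% of its length in B and 98.9% in C, each time in 1 peak. In sheep, chr6:95346274-95348416 (2143 bp) was covered over 100%, 99.2% and 94.7% in A, B and C, and in goats chr18:51679097-51681142 (2046 bp) over 100%, 99.7% and 97.6%. No domain was covered over its whole length in every library, with 0 in each species.

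The wide H3K4me3 peaks of an animal were then set against the H3K27ac of the same animal and of the other animals of its species. In the 8 animals measured for both marks, 65.5% of the length of an animal's own wide peaks was under its own H3K27ac, and the mean over all pairings of animals was 65.2%. The gap of 0.330 percentage points was small beside the range of single pairings, which ran from 53.4% to 75.2% (p = 0.0278, adjusted p = 0.0352, exact permutation of letters within species over 72 arrangements). Own H3K27ac covered more than that of the other animals in 5 of 8 animals. Without any 1 of the 8 animals the gap was 0.268 to 0.351 percentage points and no longer passed, with p from 0.0556 to 0.0833 by the same exact test.

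H3K27ac without H3K4me3, the pattern of enhancers, was more frequent around broad domains than around other regions. H3K27ac peaks free of H3K4me3 from every animal of the species, and so outside the marked promoters, were counted within 50 kb of the edges. Cattle B and C had a mean of 1.89 and 2.55 such peaks per broad domain, against 1.41 and 1.75 per other region. Sheep A, B and C had 1.70, 1.44 and 1.81, against 1.17, 1.03 and 1.25, and goat A, B and C 1.83, 2.43 and 2.11, against 1.27, 1.72 and 1.51. The broad domains were higher within every animal, although the ranges of the groups overlap between animals. The log2 ratio was 0.50 ± 0.040 (SD, n = 8), or 1.42-fold (p = 0.00781, adjusted p = 0.0117, exact sign-flip test). At least 1 such peak lay within 50 kb of 70.6% ± 3.78 of the broad domains and 58.2% ± 4.14 of the other regions. Regions from 1500 to under 2000 bp lay between, with 1.57 ± 0.279 peaks per region, and the log2 ratio of broad domains to them was 0.33. By definition the count leaves out H3K27ac peaks that touch H3K4me3. H3K4me3 peaks within 50 kb were more frequent around the other regions, at 2.89 per region against 2.31 per broad domain. How far this lowers the count around the other regions was not tested.

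**Figure D5:**
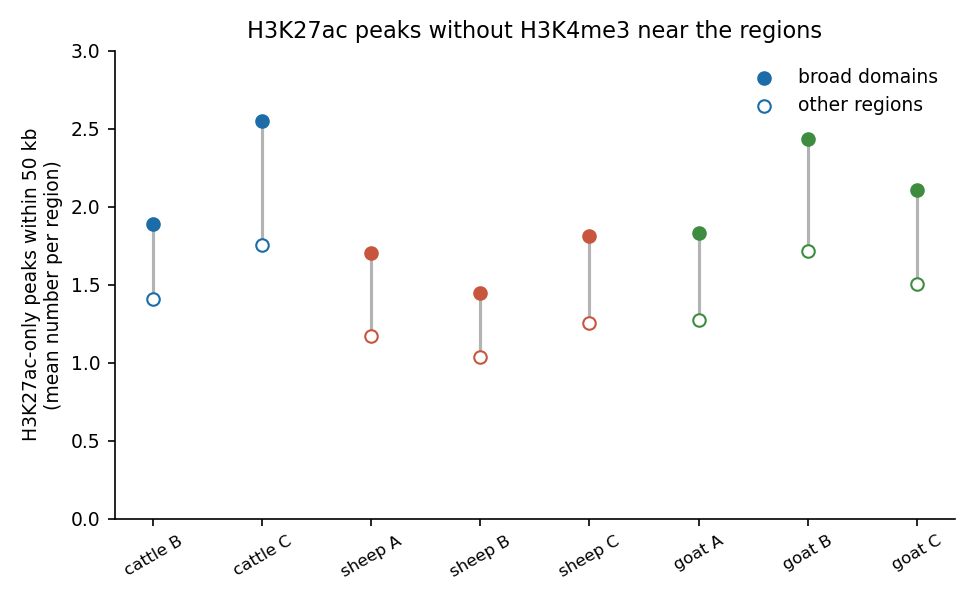
Mean number per region of H3K27ac peaks without H3K4me3 within 50 kb (vertical axis) for each of the 8 animals with both marks (horizontal axis), with broad domains as filled and other regions as open points, coloured by species. The filled point lies above the open one in every animal.

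The excess was found out to 50 kb and was smaller beyond. The ratio of broad domains to other regions was 1.37 ± 0.139 within 2.5 kb, 1.42 ± 0.147 between 2.5 and 5 kb, 1.48 ± 0.129 between 5 and 10 kb and 1.41 ± 0.0449 between 10 and 50 kb. It was 1.16 ± 0.0272 between 50 and 100 kb and 1.02 ± 0.0215 between 100 and 500 kb (SD, n = 8). H3K4me3 peaks went the other way, given as a description because H3K4me3 chose the domains. Within 50 kb there were 2.31 ± 0.266 H3K4me3 peaks per broad domain and 2.89 ± 0.146 per other region (SD, n = 9), a ratio between 0.687 and 0.864 in the 9 libraries. Regions from 1500 to under 2000 bp had 2.34 ± 0.214, close to the broad domains. Between 100 and 500 kb the ratio was 0.880 ± 0.0103, so H3K4me3 peaks remained fewer around broad domains at that distance.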

How the data were processed

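H3K4me3 and H3K27ac were measured by ChIP-seq with paired-end reads in the liver of 9 animals. Per the labels, the authors used Trim Galore 0.4.0 for trimming, aligned reads with BWA 0.7.17 to ARS-UCD1.2 (cattle), Oar_rambouillet_v1.0 (sheep) or ARS1 (goats), filtered them with SAMtools, removed duplicates with Picard 2.25.0, and called narrow peaks with MACS2 2.1.1 at q 0.01. By the methods, reads were subsampled and peaks called library by library, with no setting for broad peaks named. Whether the inputs served as background is not stated. The 17 deposited lists give each peak's position, a fold enrichment (a ratio to background) and −log10 of the q-value, all as the authors made them. The 9 input samples have no list here. Reads had been subsampled to a depth that the methods set for paired-end libraries as a whole. The lists do not show it, so it was not checked, and precision rests on the 2 or 3 animals of a group.

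Groups and animal letters came from the sample titles. Where several summits had the same interval, it counted once, at the highest fold and −log10 q among them. Chromosome numbers follow the order of the RefSeq names of the autosomes, and coordinates are 1-based. No 2 libraries were copies, since at most 0.0114% of intervals were identical in any of 16 pairs. An overlap required 1 bp. Averages over animals were tested by exact sign-flip tests, species differences in H3K27ac by the permutation F test and animals by permutation of labels. All were two-sided except F, with 0.05 as the threshold. Benjamini-Hochberg adjustment ran over the 5 F tests of H3K27ac on their own, and over a set of 9 tests. Both tests of numbers of wide peaks, by species and by mark, are counted in the 9 but not reported, because the rule used the widths of these H3K4me3 peaks. The measures were checked on simulated intervals. Regions named are, per species, the 3 widest domains, the 3 widest without H3K27ac, the domain whose least covered library was most covered, and the first 2 regions on each side of the limit, of which the text shows 1 each. Alternatives were other widths, a q of 1e-05, all sequences, joining within 500 bp, regions in at least 2 libraries, other comparison classes and measures, and leaving out each animal. The domains, lists and tests were chosen with earlier results of these data known. H3K4me3 and H3K27ac libraries of 1 letter come from the same liver, so the letters pair the marks. The deviations of log2(number of wide peaks + 1) from the group means had r = 0.404 and rho = 0.452 over 8 animals, and r = 0.135 without the 2 farthest. These values are a description with no test, because the rule used the widths of these H3K4me3 peaks. Gene names and sequences were not analysed here. Calculations used Python 3.11.15, numpy, pandas and scipy.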

Additional observations from a re-analysis of the deposited data

Results flagged for a closer look

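The gap in H3K27ac presence between broad domains and other regions differed between species. It was 20.6 percentage points ± 0.625 in sheep (SD, n = 3), 17.5 ± 1.34 in cattle (n = 2) and 15.0 ± 0.898 in goats (n = 3), and every sheep value lay above every cattle and goat value (p = 0.00357, adjusted p = 0.0179 over 5 measures, exact permutation of species labels over 560 arrangements). The broad domains themselves were at similar levels, between 94.8% and 98.2% in the 8 animals, and the other regions were lowest in sheep, between 73.6% and 77.0%. Against regions from 1500 to under 2000 bp the gap was 1.25, 0.604 and 0.319 percentage points in sheep, cattle and goats. The other regions were also shortest in sheep, with a median of 987 bp against 1024 in cattle and 1027 in goats. Sheep H3K27ac lists held 35693 to 39846 peaks, against 38390 and 42558 in cattle and at least 40457 in goats. The part of these differences in the gap was not tested. For the other 4 measures of H3K27ac on and around the domains the adjusted p lay between 0.464 and 0.779.

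Regions that met the same width and sharing limits were also found on sequences that the autosomal comparisons leave out. In cattle there were 13 among 850 regions found in all 3 animals, all on the X chromosome. Sheep had 42 among 1854, of which 28 lay on the X chromosome. Goats had 43 among 5096, on sequences not assigned to an autosome. The share that was wide, 1.53%, 2.27% and 0.844%, was below that on the autosomes of the same species, and this difference was not tested.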

How the results depend on the processing

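Of 143 results recomputed under an alternative, 125 kept their direction and their side of the threshold. Both counts include 15 reruns of the species comparison of wide peaks and 16 of the mark comparison, all of which were kept. Those reruns lend no support, because the rule used the widths of these H3K4me3 peaks. Recurrence in a held-out animal kept its direction under all alternatives run (38.3 to 66.6 percentage points). So did H3K27ac presence (0.741 to 23.9 percentage points) and the number of H3K27ac-only peaks within 50 kb (log2 ratio 0.30 to 0.77). As a description, the excess of wide peaks in H3K4me3 lay between 0.58 and 3.23 on the log2 scale. Covered length reversed with a minimum width of 2500 bp (-2.01 percentage points, exact p = 0.203) and against regions from 1500 to under 2000 bp (-5.85). The midpoint reversed under the same alternatives (-8.38 and -7.27) and did not pass with q of 1e-05 (1.98, exact p = 0.102). The H3K27ac fold reversed with a minimum width of 1500 bp (0.057) and with −log10 q (0.37). The cause of these changes was not tested. With each animal left out in turn, the midpoint lay between 2.67 and 4.76 percentage points, and the same-animal gap between 0.268 and 0.351. With wide peaks of at least 2500 bp the same-animal gap was 0.233 (exact permutation p = 0.278). With the animal letter as a replicate block, the difference between marks in the paired animals was 2.16 on the log2 scale, close to the 2.18 without it. Read depth, not shown by the lists, limits how finely peak edges and thus widths are placed.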

Other observations

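Broad domains were spread over all autosomes. Each autosome held between 9 and 54 in cattle, between 14 and 127 in sheep and between 7 and 63 in goats. As a share of the regions found in all 3 animals, they ranged from 2.88% on cattle chromosome 28 (9 of 313) to 6.33% on chromosome 14 (31 of 490), from 2.84% on sheep chromosome 20 (23 of 811) to 6.49% on chromosome 22 (30 of 462), and from 2.39% on goat chromosome 27 (7 of 293) to 6.41% on chromosome 1 (55 of 858). Cattle and goat autosomes are numbered alike and largely correspond. Over the 29 pairs, the numbers of broad domains had a Spearman rho of 0.87, and the shares one of 0.30. Both are descriptions over chromosomes that differ in size and share libraries.

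The median distance from a broad domain to the nearest one on the same chromosome was 623 kb in cattle, 544 kb in sheep and 588 kb in goats. Of the broad domains, 11.96%, 13.5% and 13.4% had the midpoint of another within 100 kb, against 13.8%, 16.4% and 16.2% of the other regions, a description with no test. The closest pairs were separated by 1661 bp on cattle chromosome 27 (6219590 to 6226157, both domains included), by 4507 bp on sheep chromosome 5 (18966709 to 18976132) and by 4886 bp on goat chromosome 19 (42587513 to 42597235).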
